A study of Xenopus tropicalis with 17 samples.

Results

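The 78 genes described here carry the names of proteins of the cytoplasmic ribosome or of their paralogs. They were chosen by name alone, as rows whose symbol begins with rpl or rps followed by a protein number or by the stalk and rpsa suffixes, out of 26531 genes in the count tables. By their names, 48 of the 78 belong to the large subunit and 30 to the small subunit. The tables hold RNA-seq counts from intact Xenopus tropicalis frog embryos of 3 sf3b4 genotypes (wild type, heterozygous, null), taken at stage 15 (neurula), stage 25 (tailbud) or stage 35 (tadpole). The 17 libraries each came from a pool of 5 embryos grown without treatment in the medium the labels call NAM. There were 2 pools of each genotype at each stage, except for 1 stage 15 null pool. The labels do not describe the sf3b4 lesion or say whether the pools of a group shared parents, so p-values measure the spread between these pools.

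A cytoplasmic ribosome joins a small subunit, which reads the messenger RNA, to a large subunit, which forms peptide bonds. Its proteins are made in matched amounts, and in vertebrates their messenger RNAs share a 5′ terminal oligopyrimidine (TOP) tract through which growth signals set their translation. The gene sf3b4 encodes a protein of SF3b, the part of the spliceosome that helps to recognise the branch point of introns. Human carriers of mutations in SF3B4 can have Nager syndrome, and mutations in several human ribosomal protein genes cause Diamond-Blackfan anaemia. Craniofacial defects can occur in both.

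Library totals ran from 11714437 to 21639041 counts, and every one of the 78 genes passed the filter on low counts. Pools of the same group differed by more than sampling noise, with chi-square values of 10.98 to 53.4 per degree of freedom over genes. The level of sf3b4 itself, in CPM (the count divided by the scaled library total, times 1e6), was 152 in the stage 15 null pool, 110 and 113 in the stage 25 null pools, and 74.8 and 80.2 in the stage 35 null pools. The wild type pools had 287 and 210 at stage 15, 144 and 147 at stage 25, and 83.6 and 107 at stage 35. Heterozygous pools had 177 and 224, then 110.5 and 125, then 93.2 and 64.6, overlapping with the null pools at stages 25 and 35. The null pools were lower than the wild type pools at each stage, but the difference was not called by edgeR's quasi-likelihood test with Benjamini-Hochberg adjustment (log2 fold change −0.38, adjusted p = 0.433 at stage 25, and −0.30, adjusted p = 0.394 at stage 35). Of 14 markers chosen to check for the tissues of a whole embryo, such as sox2 for neural tissue, actc1 for muscle and hba3 for blood, 13 were tested and none was called between null and wild type pools at either stage. Their log2 fold changes ran from −1.10 to 0.76 at stage 25 and from −0.90 to 1.36 at stage 35. The lowest adjusted p by the same test was 0.173 and 0.0549. With 2 pools per group, the absence of a call does not show equal levels. The keratin marker, listed as krt61, was at 0 to 0.0732 CPM.

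The ribosomal protein genes took a larger share of the transcript counts as the embryos grew, and the share was lowest in null pools at stages 25 and 35. In wild type pools they held 3.84% and 4.79% of all counts at stage 15, 6.85% and 8.30% at stage 25, and 13.8% and 15.5% at stage 35. Heterozygous pools held 3.87% and 4.67%, then 6.99% and 7.91%, then 14.6% and 15.9%, and each pair overlapped with the wild type pair of its stage. Null pools held 6.10% and 6.33% at stage 25 and 12.9% and 13.1% at stage 35, below the other 4 pools of each stage. The single stage 15 null pool held 4.83%, above the other 4 pools of its stage (exact 95% binomial interval 4.82% to 4.84%, which covers counting error only).

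**Figure D1:**
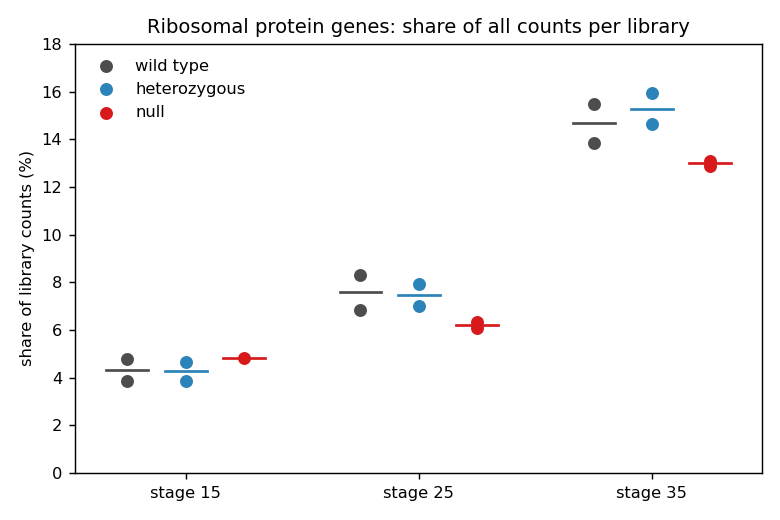
Share of all counts held by the 78 ribosomal protein genes (y axis, percent of the library total) in each of the 17 pools (points) by stage, with group means as lines. The wild type means are 4.32%, 7.57% and 14.7%, and the null pools lie below the other pools at stages 25 and 35.

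The mean wild type share was 4.32% ± 0.673 (SD, n = 2) at stage 15, 7.57% ± 1.02 at stage 25 and 14.7% ± 1.17 at stage 35, which is 3.40 times the first value by the last stage. The null means were 6.21% ± 0.167 (SD, n = 2) and 13.0% ± 0.144, or 0.820 and 0.886 times the wild type means. The differences of −1.36 and −1.68 percentage points are larger than the spread of the null pools and about as large as the distance between the wild type pools of each stage. Large subunit genes held between 55.3% and 57.5% of the family's counts in every pool, so the balance between the subunits varied little with stage or genotype. Depth moved with the share at some stages: within stage 15 the libraries with the largest totals, 21370663 and 21639041 counts, had the lowest shares, and at stage 35 the first null pool had both the highest total and the lowest share. At stage 25 the first null pool had the lowest total and the lowest share. The part of depth in these differences was not tested. In RNA from whole embryos, fewer cells rich in these transcripts and less of them per cell cannot be told apart.

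From stage 15 to stage 25, 67 of the 78 genes rose in wild type embryos and none fell, where 23.4% of all 17742 genes tested rose and 16.9% fell. The median log2 fold change of the family was 0.67, beside 0.07 for all genes. The largest rises were those of rpl22l1, a paralog of rpl22, of the stalk protein gene rplp2, and of rps12, a small subunit gene. In CPM, rpl22l1 went from 54.0 and 72.3 in the stage 15 wild type pools to 193 and 131 at stage 25 (log2 fold change 1.36 ± 0.22 SE, adjusted p = 0.000205, edgeR's quasi-likelihood test with Benjamini-Hochberg adjustment). For rplp2 the levels were 163 and 219, then 482 and 418 (1.24 ± 0.19, adjusted p = 0.00014 by the same test). The later pools lay above the earlier ones in both genes. The rise of rps12 was 1.08 ± 0.22. Among the 11 genes that were not called were rpl13a, rpl23a, rpl30, rpl3l, rpl7, rpl7l1, rps16, rps27, rps27l and rps29. Of the 4 wild type libraries in this comparison, leaving out the first stage 25 pool lowered the count to 28 and leaving out the first stage 15 pool lowered it to 37, while calls over all genes went from 7151 to 5322 and 4387.

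From stage 25 to stage 35, 74 of the 78 genes rose in wild type embryos and none fell, where 24.7% of all genes rose and 22.5% fell. The family median was 0.85, beside 0 for all genes. The largest rises were again in rplp2 (1.27 ± 0.19) and in rps29, a zinc-binding small subunit protein gene (1.26 ± 0.17), and rplp0, which anchors the stalk (1.23 ± 0.16). Their adjusted p-values were 7.32e-05, 2.65e-05 and 2.36e-05 by edgeR's quasi-likelihood test. The 4 exceptions were rpl3, rpl3l, rpl7l1 and rps27l. Both steps use the stage 25 wild type pools, once as the later and once as the earlier group, so a pool that is high at stage 25 enlarges one step and shrinks the other. In null embryos 74 of 78 also rose from stage 25 to stage 35, with 23.3% of all genes rising and 21.1% falling, and a family median of 0.96. There the largest rises were those of rpl11 (1.39 ± 0.18), rplp2 (1.31 ± 0.19) and rps21 (1.24 ± 0.19), with adjusted p-values of 2.22e-05, 7.1e-05 and 0.000113.

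**Figure D2:**
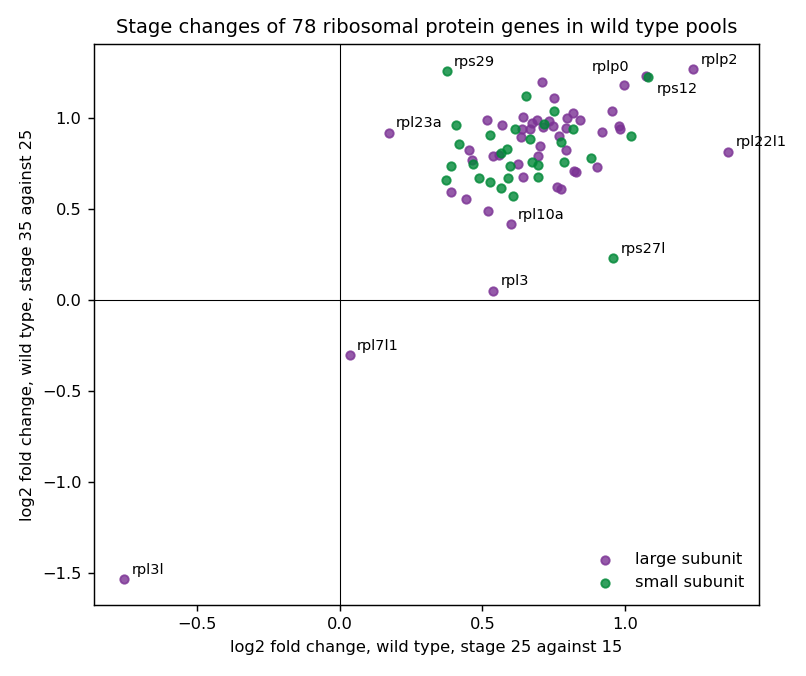
Log2 fold change of each of the 78 genes in wild type pools from stage 15 to 25 (x axis) and from stage 25 to 35 (y axis), coloured by subunit. Most genes lie above 0 on both axes, rpl7l1 and rpl3 lie at −0.30 and 0.05 on the y axis, and the axes share the stage 25 pools; rpl3l rests on at most 37 counts in a library.

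A few members did not keep pace with the family. When each library was scaled by the summed counts of the 78 genes, rpl3, which encodes a large subunit protein close to the peptidyl transferase centre, fell relative to the family over the second wild type step by 0.79 on the log2 scale (SE 0.17, adjusted p = 0.000695, edgeR's quasi-likelihood test) and by 0.91 over the same interval in null pools (adjusted p = 0.000199). In CPM, rpl3 had stood at 1350 and 1632 in the stage 15 wild type pools, 2097 and 2233 at stage 25, and 2192 and 2296 at stage 35. It thus rose early and then stayed level while most other members rose. The relative level of rpl7l1, named for its likeness to rpl7, fell by 0.64 in the first wild type step and by 1.15 in the second. Its own CPM lay between 235 and 347 in every wild type pool. The annotated span of rpl7l1 in the RefSeq table overlaps those of other protein-coding genes, among them tap2 and psmb8, so its counts are uncertain. In the first step rpl23a fell relative to the family by 0.51, and in the second rpl10a by 0.42. The relative level of rplp2 rose in both steps, by 0.58 and 0.43, and that of rps29 by 0.43 in the second.

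At stage 25 the ribosomal protein genes stood lower in null than in wild type pools almost without exception, by small amounts. Of the 78 genes, 77 had a negative log2 fold change, with a median of −0.26, beside 8686 negative of 17742 and a median of 0.0025 over all genes tested. The 2 wild type pools of this stage differed from each other by more, with a median of 0.33 and the first higher in 73 of the 78. Members thus also moved together between pools of 1 genotype, so the 77 are not independent results. The null and wild type pools did not overlap in 38 genes, all of them lower in null pools, where 21.9% of all genes had null pools below and 20.4% above. Only rpl22l1 and rpl9 were called lower by edgeR, 2 of 78 where 0.986% of all genes were called lower, and none was called higher, where 0.789% were. A further 12 had an unadjusted p under 0.05, making 14 of 78, where 2423 of all 17742 genes tested had one. The size of the shift rests on the wild type pools: without the first, which had the highest share of the stage, the median was −0.071 with 56 negative, and without the second it was −0.43 with 77 negative. No member was called without the first wild type pool or without either null pool, and calls over all genes dropped from 315 to 0, 43 and 171.

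At stage 35, 63 of the 78 genes were lower in null than in wild type pools, with a median of −0.15, beside −0.03 for all genes. The pools did not overlap in 47 genes, with null pools below in 43, as in 32.7% of all genes, and above in 4, as in 27.8% of all genes. Calls were made for 4 genes, all lower, rpl22l1, rpsa, rpl9 and rpl10, a share close to the 4.95% of all genes called lower and the 4.80% called higher. Without either null pool or the second wild type pool 1 call was left, and without the first wild type pool 2, while calls over all genes went from 1730 to 529, 434, 376 and 1251. The median was −0.25 without the first wild type pool and −0.077 without the second. The null pools of stage 35 resembled each other closely, with a median difference of −0.01 over the family. The other pairs of that stage did not. The first wild type pool differed from the second by −0.15, about as much as the null median, and was higher in 13 of 78 genes. Between the heterozygous pools the median difference was −0.20, with the first higher in 8. Relative to all 4 heterozygous and wild type pools, both null pools were lowest in 36 members at stage 25, where 13.2% of all genes were, and in 42 at stage 35, where 25.7% were. Directions of the family hold under scaling by all genes, with 75 and 64 members negative at stages 25 and 35 by the size factors of DESeq2. Scaling by the family's own sum centres it, with 45 members positive and 33 negative at both stages and the median of all genes at 0.27 and 0.14.

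**Figure D3:**
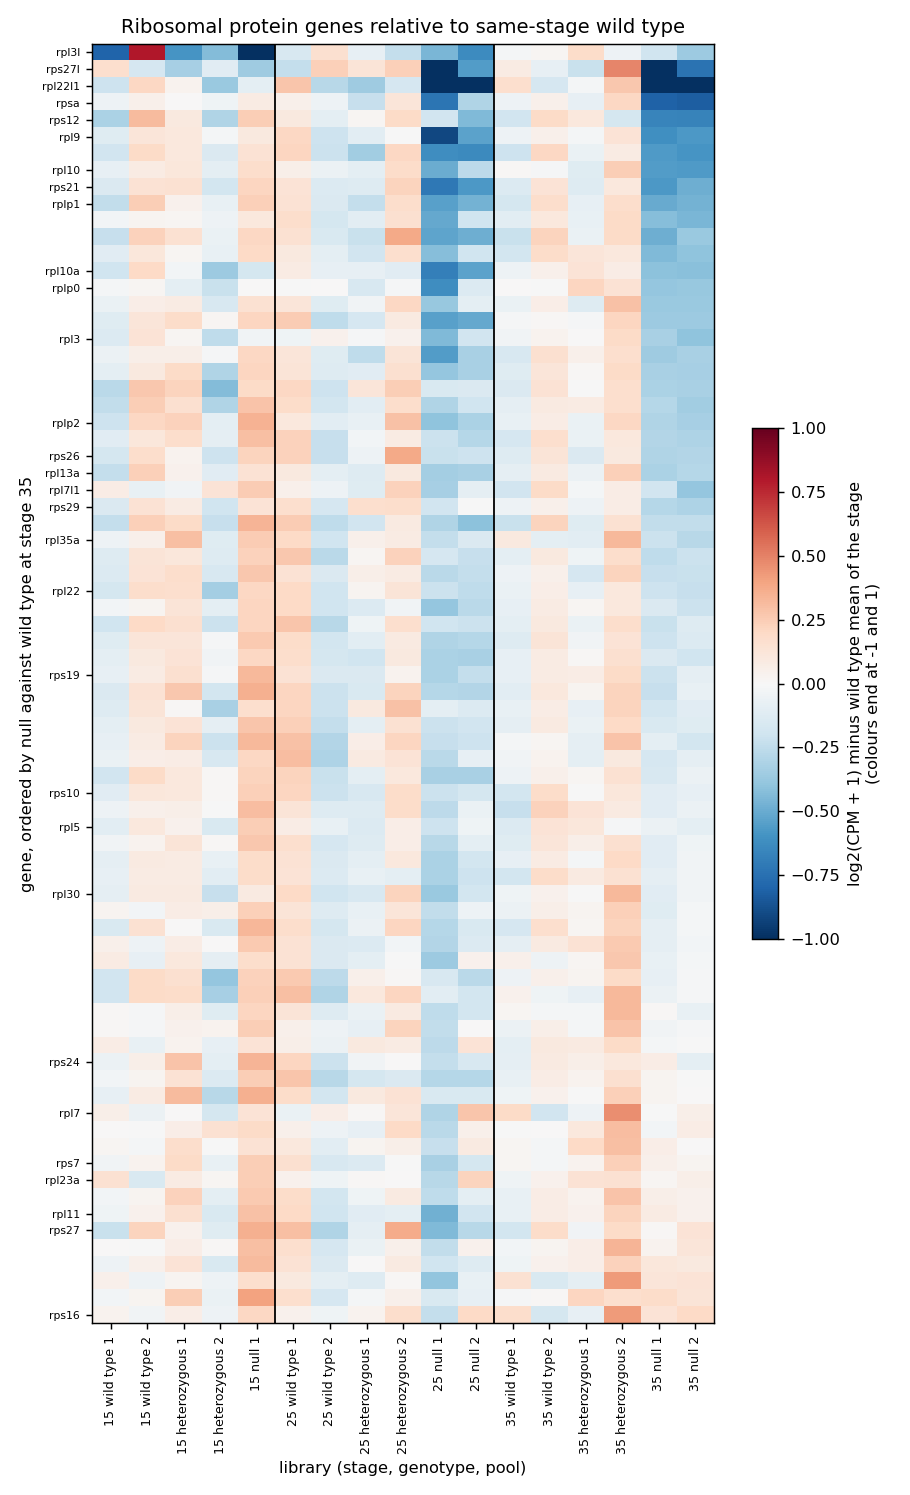
Level of 76 ribosomal protein genes (rows, with those named in the text labelled) in each pool (columns), as log2(CPM + 1) minus the mean of the wild type pools of the same stage; colours end at −1 and 1 and rows are ordered by the stage 35 null effect. Blue fills the stage 25 null columns nearly from top to bottom, while at stage 35 it is deepest in the upper rows, from rpl22l1 and rpsa downward, and the lower rows are near white.

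The gene with the largest called difference was rpl22l1. Its product is a close relative of rpl22, a large subunit protein that mice can live without and that there binds the rpl22l1 transcript and lowers its level. In CPM, the wild type pools had 193 and 131 at stage 25, the heterozygous pools 124 and 141, and the null pools 76.5 and 71.4. At stage 35 the wild type pools had 318 and 251, the heterozygous pools 279 and 341, and the null pools 129 and 117. The null pools were lowest at both stages without overlap, and their stage 35 level lay below the wild type mean of stage 25, which was 162. The log2 fold change from wild type was −1.13 ± 0.21 at stage 25 (adjusted p = 0.0167) and −1.21 ± 0.21 at stage 35 (adjusted p = 0.00296), by edgeR's quasi-likelihood test with Benjamini-Hochberg adjustment. The stage 25 call was lost without the first wild type pool or without either null pool, in fits that leave 1 pool in a group. The log2 fold change was then −0.83, −1.18 and −1.08. Relative to the family's sum, rpl22l1 was still lower at stage 35, at −1.03 ± 0.21 (adjusted p = 0.00644). At stage 15 the null pool had 58.4 CPM, within the range of 48.1 to 72.3 of the other pools. Its partner rpl22 was at 441 and 428 CPM in null and 589 and 445 in wild type pools at stage 25, and at 964 and 948 against 1066 and 1168 at stage 35. The null pools were again the lower ones, with log2 fold changes of −0.25 and −0.22 that did not pass the test (adjusted p = 0.624 and 0.507).

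The other called genes fell by smaller factors. For rpsa, a small subunit protein also known as the laminin receptor precursor, mutations of which cause congenital absence of the spleen in humans, the stage 35 null pools had 1094 and 1085 CPM against 1853 and 1982 in wild type and 1808 and 2217 in heterozygous pools. This is 56.8% of the wild type level (log2 fold change −0.82 ± 0.17, adjusted p = 0.00924, edgeR's quasi-likelihood test), and near the 1159 and 1078 CPM of wild type pools at stage 25. The call was lost without either null pool or the second wild type pool, in fits that leave 1 pool in a group. The log2 fold change was then −0.82, −0.81 and −0.77. At stage 25 the null pools had 673 and 909 CPM, below both wild type pools, with no call (−0.50 ± 0.17, adjusted p = 0.186). Relative to the family, rpsa was still lower at stage 35, at −0.63 ± 0.18 (adjusted p = 0.039), while against heterozygous pools on this scale it was at −0.60 ± 0.18 with no call (adjusted p = 0.0530). It also had the smallest called rise of the family in null embryos from stage 25 to 35, at 0.46 ± 0.17 (adjusted p = 0.0423).

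Levels of rpl9, a large subunit protein near the stalk base, were 367 and 476 CPM in stage 25 null pools and 796 and 599 in wild type pools. At stage 35 they were 936 and 961 against 1387 and 1481. The null pools did not overlap with the wild type pools at either stage, and the log2 fold changes were −0.73 ± 0.17 (adjusted p = 0.0452) and −0.60 ± 0.17 (adjusted p = 0.0411) by edgeR's quasi-likelihood test. For rpl10, which is added last in the maturation of the large subunit in yeast, the stage 35 null pools had 1445 and 1437 CPM, the wild type pools 2146 and 2108 and the heterozygous pools 1957 and 2523 (null against wild type −0.56 ± 0.17, adjusted p = 0.0458). These calls lie close to the threshold. With the pool number as a block, rpl9 at stages 25 and 35 and rpl10 at stage 35 had adjusted p of 0.0576, 0.0508 and 0.0509. Each of the stage 35 calls was lost without any 1 of the 4 pools compared, in fits that leave 1 pool in a group. The log2 fold changes moved little there, from −0.64 to −0.55 for rpl9 and from −0.57 to −0.55 for rpl10. The stage 25 call of rpl9 was lost without the first wild type pool (−0.51) and without either null pool (−0.55 and −0.93). It was also lost without each of 10 pools of other groups.

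**Figure D4:**
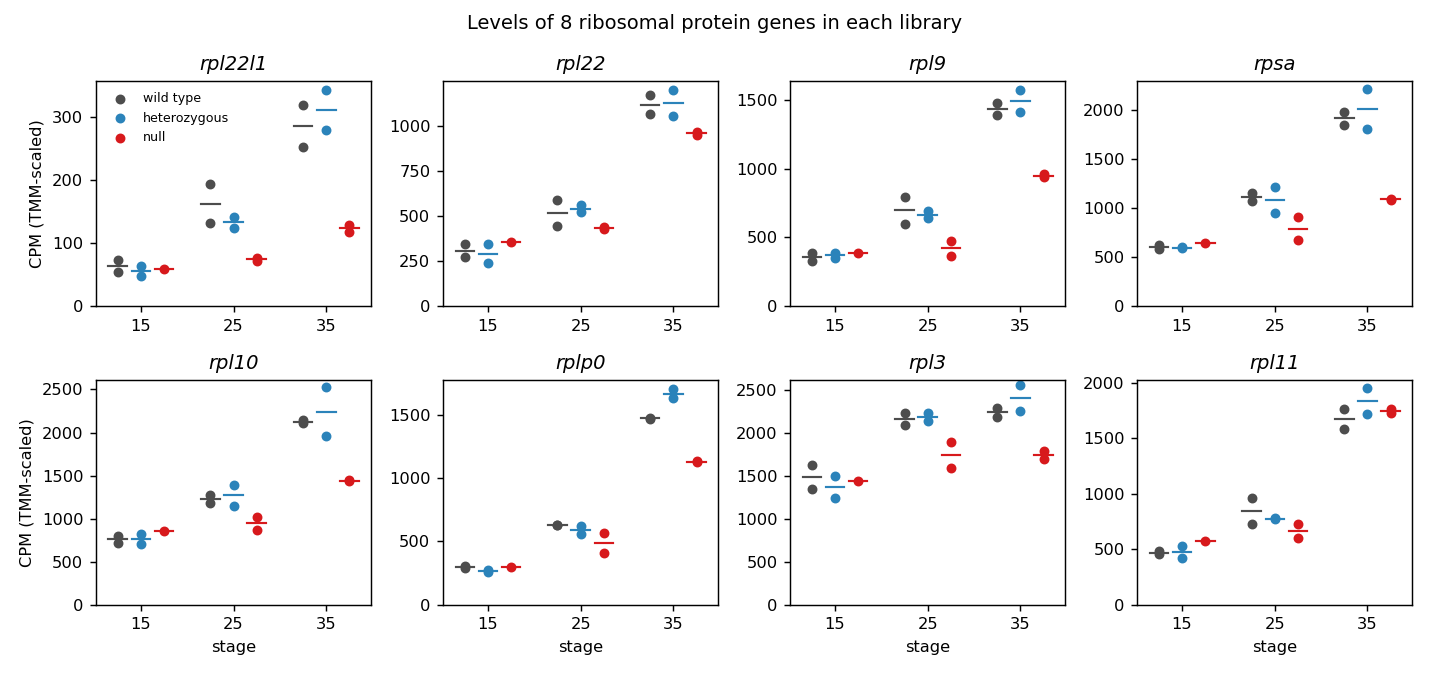
CPM of 8 ribosomal protein genes in each pool (points) by stage and genotype, with group means as lines and each y axis starting at 0. In rpl22l1, rpl22, rpl9, rpsa, rpl10, rplp0 and rpl3 the null pools of stage 35 lie below all other pools of that stage, while in rpl11 they lie among them.

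The stalk of the large subunit, which recruits the elongation factors, is built on rplp0 and carries rplp1 and rplp2. All 3 genes were lower in both null pools than in both wild type pools at stages 25 and 35, with log2 fold changes between −0.51 and −0.32, and none was called against wild type. In CPM, rplp0 stood at 1126 and 1131 in stage 35 null pools, 1473 and 1469 in wild type pools, and 1704 and 1629.5 in heterozygous pools. Against heterozygous pools it was called (−0.56 ± 0.16, adjusted p = 0.0448, edgeR's quasi-likelihood test), a call lost without any 1 of these 4 pools. The log2 fold change was then between −0.59 and −0.53. The members of the 5S ribonucleoprotein, rpl5 and rpl11, which in mammals bind MDM2 when ribosome assembly is impaired, differed less. For rpl11 the stage 25 null pools had 598 and 729 CPM against 960 and 726 in wild type, and at stage 35 they had 1766 and 1723 against 1583 and 1761. The pools overlapped at both stages, with log2 fold changes of −0.35 ± 0.17 (adjusted p = 0.401) and 0.06 ± 0.17 (adjusted p = 0.870). For rpl5 they were −0.12 and −0.08.

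Among genes named as paralogs of a family member, rps27l and rpl3l were rare transcripts. Counts of rps27l, which in human cells is a target of p53, were 17 and 38 in stage 25 null pools and 54 and 78 in wild type pools, then 24 and 33 against 74 and 57 at stage 35. The null pools were below the wild type pools at both stages, with log2 fold changes of −1.18 ± 0.45 and −1.30 ± 0.45 that did not pass edgeR's quasi-likelihood test (adjusted p = 0.238 and 0.0833). Its partner rps27 was at −0.39 and 0.06, with overlapping pools. Counts of rpl3l, whose mammalian counterpart is made in striated muscle, were 5 and 3 in stage 25 null pools and 11 and 17 in wild type, then 2 and 0 against 4 and 4. With 3 or fewer counts in 5 of the 17 libraries, no fold change is read for it. For rpl7 the pools overlapped at both stages, with log2 fold changes of 0.02 each, and rpl7l1 was at −0.21 and −0.30 with no call.

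Of genes known from human Diamond-Blackfan anaemia, rps19, rps26, rps10, rps24, rpl35a and rps7 were followed and none was called against wild type. Their log2 fold changes ran from −0.28 in rps19 to −0.20 in rpl35a at stage 25, and from −0.30 in rps26 to 0.04 in rps7 at stage 35. For rps19, the gene most often mutated in the human disease, the null pools had 772 and 814 CPM against 1060 and 868 in wild type at stage 25, and 1455 and 1586 against 1598 and 1782 at stage 35. They lay below the wild type pools at both stages, with log2 fold changes of −0.28 ± 0.15 and −0.15 ± 0.15 and adjusted p of 0.457 and 0.591 by edgeR's quasi-likelihood test. Without the first stage 25 wild type pool, rps26, rps10, rps24 and rpl35a stood between 0.0076 and 0.022 at stage 25.

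Heterozygous embryos gave no call in the family. Against wild type, 0 of 78 genes were called at stages 15, 25 and 35 by edgeR, and DESeq2 also called 0. An unadjusted p under 0.05 was found for 0 of 78, where 824, 502 and 235 of all 17742 genes tested had one. Over all genes edgeR called 0% at stages 15 and 25 in either direction, and 0.00564% higher at stage 35. The family medians were 0.0015, 0.01 and 0.10, and at stage 35 74 of the 78 values were positive. Of those, 11 had both heterozygous pools above both wild type pools, where 14.5% of all genes did. The stage 35 median was 0.19 without the first heterozygous pool, −0.0092 without the second, 0.022 without the first wild type pool and 0.18 without the second.

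The comparison of null with heterozygous embryos uses the same null pools as the one above, so its values are given beside it and not as a separate line of evidence. At stage 25, 0 genes of the family were called by edgeR, where 0.0338% of all genes were called in each direction. An unadjusted p under 0.05 was found for 15 of the family, where 1707 of all 17742 genes tested had one. DESeq2 called rpl22l1, rpl9 and rps21. All 78 log2 fold changes were negative, with a median of −0.28, and in 60 genes the null pools lay below the heterozygous pools, where 21.3% of all genes did. At stage 35 all 78 were negative, with a median of −0.24, and 62 had null pools below heterozygous pools, where 33.2% of all genes did. The 5 genes called lower were rpl22l1 (−1.33 ± 0.21, adjusted p = 0.00254), rpsa (−0.89 ± 0.17, adjusted p = 0.00795), rpl10 (−0.64 ± 0.17, adjusted p = 0.0328), rpl9 (−0.66 ± 0.17, adjusted p = 0.0336) and rplp0, where 3.65% of all genes were called lower and 3.34% higher. The 4 genes called against wild type at this stage were among them. The stage 35 count was 3 without the first heterozygous pool and 1 without the second or without either null pool, while calls over all genes went from 1239 to 269, 520, 333 and 257. The medians were −0.19 at stage 25 and −0.14 at stage 35 without the second heterozygous pool, which had the higher share at both stages.

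**Figure D5:**
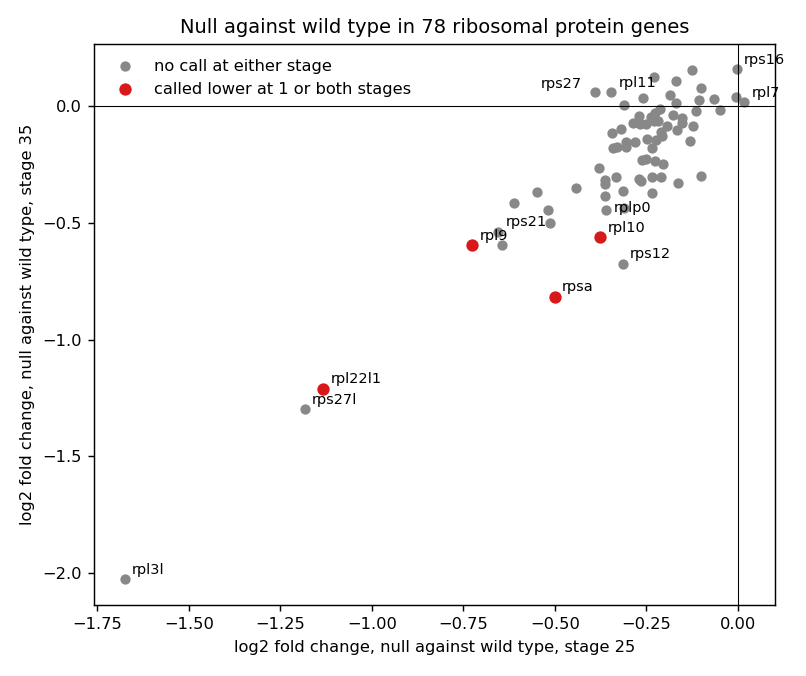
Null minus wild type difference (log2 fold change) of the 78 genes at stage 25 (x axis) and stage 35 (y axis), from separate pools at each stage; red marks the 4 genes called at 1 or both stages. The fitted values of rpl3l rest on counts of 0 to 17, and 1 gene lies right of 0 at stage 25 while 15 lie above 0 at stage 35.

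Whether the null effect changed between stages was tested as a difference of the differences. No member was called, where 0.113% of all genes were called with a higher and 0.0282% with a lower value at stage 35. DESeq2 called none either. No member had an unadjusted p under 0.05, where 1562 of all 17742 genes tested had one. The differences were positive in 58 members, with a median of 0.10, but that median was −0.056 when the first stage 25 wild type pool was left out and 0.25 when its partner was. The largest difference among the named genes, 0.45 ± 0.32 in rps27, had an adjusted p of 0.736. Set between the wild type stages, the null mean at stage 35 lay between the wild type means of stages 25 and 35 in 57 members. It lay above both in 15 and below both in rpl22l1, rpl3, rpl3l, rpl7l1, rps27l and rpsa.

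The single stage 15 null pool has no replicate and was not tested. Its log2 values over the family were higher than those of the first wild type pool by a median of 0.31, with 76 of 78 genes higher, and than those of the second by 0.13, with 63 higher. Against the heterozygous pools the medians were 0.11 and 0.31. The wild type pools of that stage differed from each other by 0.18 in the median and the heterozygous pools by 0.21. Of the 4 medians of the null pool, 2 exceed these distances, those against the first wild type and second heterozygous pools. Those pools had 21370663 and 21639041 counts, where the null pool had 14340647. The pools behind the medians of 0.13 and 0.11 had 14324260 and 13237631. At stage 25 the wild type pools differed by 0.33, more than any of the 4 medians. The part of depth was not tested.

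Genes that work with the ribosomal proteins did not share their pattern as one block. The gene fau encodes a ribosomal protein fused to a protein like ubiquitin, and its name falls outside the rule. It rose by 0.69 and 0.92 in the wild type steps, and its null effects of −0.06 at stage 25 and −0.10 at stage 35 were not called. Of 8 elongation factor genes, 4 rose from stage 15 to 25 in wild type pools, where 23.4% of all genes rose, and from stage 25 to 35 2 rose and 1 fell, where 24.7% rose and 22.5% fell. Their median null effects against wild type were −0.15 at stage 25 and −0.27 at stage 35 with no call. Against heterozygous pools the medians were −0.15 and −0.32. There 0 and 1 of the 8 were called lower, where 0.0338% and 3.65% of all genes were. Of 16 other genes listed with TOP messenger RNAs, eif3l was higher (0.57 ± 0.15, adjusted p = 0.0307) and eif3f and hnrnpa1 were lower (−0.57 ± 0.16 and −0.64 ± 0.19, adjusted p = 0.0328 and 0.0428) in stage 35 null pools by edgeR's quasi-likelihood test. The list median was −0.01, and 4.80% of all genes were called higher and 4.95% lower. Against heterozygous pools at that stage 0 of the 16 were called higher and 1 lower, where 3.34% and 3.65% of all genes were. At stage 25, 0 were called against wild type, where 0.789% of all genes were higher and 0.986% lower. Against heterozygous pools of stage 25 it was also 0, where 0.0338% were called in each direction.

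Ribosome biogenesis factors process ribosomal RNA and assemble the subunits. Of 70 tested, 7 rose and 5 fell over the first wild type step, with a median of 0.03, where 23.4% of all genes rose and 16.9% fell. Then 61 fell and none rose in the second wild type step, with a median of −0.84, where 22.5% of all genes fell. In null embryos 54 of them fell over the same step, where 21.1% of all genes fell. At stage 35, 9 of the 70 were higher in null than in wild type pools and none was lower, where 4.80% of all genes were higher and 4.95% lower, with a list median of 0.22. Against heterozygous pools 7 were higher at stage 35, where 3.34% of all genes were, with a median of 0.16. None was called against them at stage 25, where 0.0338% of all genes were called in each direction, and the median was −0.0017. The 9 called higher than in wild type pools at stage 35 were rpf1 (1.01 ± 0.17, adjusted p = 0.00188), mdn1 (0.89), gnl3 (0.74), gar1 (0.72), rrp1b (0.67), ddx18 (0.66), tsr1 (0.64), sdad1 (0.64) and utp18 (0.61). They act in large subunit assembly, in the small nucleolar ribonucleoproteins or in small subunit processing. Their adjusted p-values reached 0.0413 by edgeR's quasi-likelihood test. The mean level of rpf1 was 88.2 CPM in null pools, against 43.8 in wild type. At stage 25 the polymerase I factor gene rrn3 was the only one called against wild type, at 0.84 ± 0.19 (adjusted p = 0.0382 by the same test), where 0.789% of all genes were called higher. The list median at that stage was 0.09. Of 11 genes for TOP regulators and MYC proteins, mycn (0.94 ± 0.22, adjusted p = 0.0133), myc (0.61 ± 0.15, adjusted p = 0.0164) and tsc1, an inhibitor of mTOR signalling (0.74 ± 0.22, adjusted p = 0.0431), were higher in stage 35 null pools, where 4.80% of all genes were. Over the second wild type step mycn fell by 1.32 and myc by 1.48 on the log2 scale.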

How the data were processed

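Raw read counts per gene were deposited by the authors as 1 table per library, per the file headers. Per the submitters' processing notes, bcl2fastq 2.20 and STAR were used. Libraries were stranded and polyA-selected, per the labels' protocols. The counting program, genome build, annotation and use of strand are not given in the sources used here, so counts of overlapping genes are uncertain.

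Genes were filtered with filterByExpr (minimum count 10, minimum total 15), which kept 17742 genes with at least 99.9% of each library's counts. Library scaling used TMM, the trimmed mean of M values. The main test was edgeR's quasi-likelihood test (edgeR 4.0.16, R 4.3.3, limma 3.58.1), two-sided, fitted to the 16 libraries of the 8 replicated groups with a coefficient each, leaving 8 residual degrees of freedom. Within each comparison the Benjamini-Hochberg adjustment ran over all genes tested, and genes were called at an adjusted p under 0.05. A prior count of 2 entered the log2 values compared between single pools, while fold changes used edgeR's default. DESeq2 1.42.0, other scalings, no filter, a replicate block and the leaving out of each pool were alternatives. Only the family's own results were followed through them. Calls of list genes outside the family come from the main fit alone, and whether they hold in the alternatives was not checked. The test was checked on simulated data.

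The genes and lists were chosen with earlier results of these data known. Named genes were those called in a genotype comparison, the 3 largest called changes per stage step, paralog pairs, the stalk, rpl5, rpl11, rpsa, listed Diamond-Blackfan genes and list genes called against wild type; a few items are not reported here. All 78 symbols matched the RefSeq table of assembly UCB_Xtro_10.0, used only for names and overlaps.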

Additional observations from a re-analysis of the deposited data

How the results depend on the processing

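Fewer calls held than directions. Against wild type at stage 25, 2 members were called; DESeq2 called 4, edgeR with DESeq2 size factors 1, no low-count filter 5 and the libraries of that stage alone 4, where these fits called 683, 319, 584 and 445 of all genes beside 315, and leaving out single pools gave 0 to 3. At stage 35, 4 were called, and DESeq2 and no filter gave 7 each (2313 and 2179 of all genes, beside 1730) and single pools left out 1 to 5. Against heterozygous pools, DESeq2 and no filter gave 3 and 2 in place of 0 at stage 25, and 11 and 9 in place of 5 at stage 35 (171, 149, 1726 and 1646 of all genes, beside 12 and 1239), where leaving out pools gave 1 to 8. Scaling by the summed member counts was chosen after seeing the data. It holds the family's sum equal in every library, so a shift shared by the members cannot be called under it. Calls over all genes are not given in this paragraph for it or for the fits with pools left out. This scaling left 0 and 2 calls against wild type, and 1 against heterozygous pools at stage 35. In the wild type steps and the null step it left 4, 5 and 4 in place of 67, 74 and 74. Leaving out pools gave 28 to 68, 55 to 74 and 66 to 74 there. The calls of rpl22l1 at stage 35 held in all 22 alternatives that gave it a value, with adjusted p from 3.21e-06 to 0.0488 against wild type and from 3.51e-07 to 0.0440 against heterozygous pools. Scaling by the members is not among these 22. Those of rpsa held in 19 of 22 in each comparison. In the others, which leave 1 pool in a group, its log2 fold change was −0.82 to −0.77 against wild type. Against heterozygous pools it was −0.89 to −0.73. For rpl9 the adjusted p ran from 0.00385 to 0.385 at stage 25 and from 0.00789 to 0.220 at stage 35, and for rpl10 at stage 35 from 0.00871 to 0.209.

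The pool numbers come from the sample titles, and no label says that they pair samples. Same-numbered pools did not deviate together, with correlations of −0.367 to 0.0991 between groups compared. The lowest were −0.367 and −0.224, for heterozygous and wild type pools of stages 35 and 15. With 2 pools per group the deviations mirror each other, so a negative value means that differently numbered pools deviate together. The check therefore cannot exclude pairs under other numbers. With the replicate block, 1 and 2 members were called against wild type at stages 25 and 35, and rplp0 against heterozygous pools had an adjusted p of 0.0525. Calls over all genes with this block are not given here.

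When single pools were left out, the family median ran from −0.43 to −0.071 for null against wild type at stage 25, from −0.14 to 0.16 for heterozygous against wild type at stage 25, from 0.52 to 0.85 and from 0.69 to 1.01 for the wild type steps, and from −0.056 to 0.25 for the difference of the null effects. Uncalled genes changed sign. At stage 25 these were rpl7 (−0.30 to 0.28), rps26 (−0.44 to 0.014), rps10 (−0.41 to 0.022), rps24 (−0.41 to 0.018) and rpl35a (−0.39 to 0.0076). At stage 35 they were rps27 (−0.11 to 0.26), rpl7 (−0.16 to 0.22), rpl5 (−0.21 to 0.057), rpl11 (−0.014 to 0.14), rps10 (−0.28 to 0.085) and rps24 (−0.10 to 0.081). The cause of these changes was not tested. Without the 10 most abundant other genes the null shares were 5.23%, 6.67% and 13.7% at stages 15, 25 and 35. The mean wild type shares were then 4.65%, 8.10% and 15.4%, and the heterozygous ones 4.60%, 8.01% and 16.1%. A smaller total must raise every share, so the rise itself shows nothing. The null shares were still below the other means at stages 25 and 35, and that of the single stage 15 null pool was above them. Counts of rpl3l and rps27l are low, which limits what depth can show for them.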

Other observations

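In the RefSeq table, annotated small nucleolar RNA genes lie within the spans of 25 of the 78 members. The median null effect against wild type was −0.31 in these genes and −0.23 in the other 53 at stage 25, and −0.26 and −0.11 at stage 35. Against heterozygous pools it was −0.32 and −0.26 at stage 25, and −0.28 and −0.23 at stage 35, where the 2 sets lay closer together. For heterozygous against wild type pools the medians of the hosts and of the others were −0.0055 and 0.0031 at stage 15. They were 0.0081 and 0.01 at stage 25, and 0.09 and 0.11 at stage 35. Over the wild type step from stage 25 to 35 they were 0.78 and 0.90. The table's assembly may not be that of the counts, and whether the 2 sets differ was not tested.

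The relation of rpl22l1 to its family was followed over the stages in each pool. It took 0.122% and 0.144% of the family's counts in stage 15 wild type pools, 0.230% and 0.195% at stage 25, and 0.253% and 0.177% at stage 35. In null pools the shares were 0.107% at stage 15, 0.129% and 0.110% at stage 25, and 0.111% and 0.0993% at stage 35. The wild type share was thus higher at the later stages, while all 5 null pools stood between 0.0993% and 0.129%. The share of rpsa in the family's counts was 0.940% and 0.920% in stage 35 null pools, and between 1.13% and 1.61% in the other 15 pools.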
